A study of Mus musculus with 6 samples.

Results

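DNA replication genes encode the proteins that license origins, unwind and copy the chromosomes, supply deoxynucleotides and carry cells into S phase. A list of 54 such genes was examined in cells of the posterior mouse embryo, sorted by a GFP reporter of Noto, a homeobox gene active in the node and in notochord precursors. Members were the probe sets that the platform annotation gives exactly 1 of these gene symbols. Of the 54 genes, 53 had such a probe set, 116 probe sets in all, and all 53 passed the filter on low values, among 12628 genes tested. Chaf1a had no such probe set and was used only in the promoter search.

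Both groups came from the same heterozygous Noto-GFP embryos of mixed 129S3;ICR background and mixed sex, collected at embryonic day 8.5 with a median somite number of 6. Tissue behind the boundary of the first somites was cut out, treated with 1% trypsin and sorted, with 23, 39 or 52 embryos to a pool. Each of these 3 pools gave 1 GFP-positive array, from about 2600, 4300 or 6600 sorted cells, and 1 GFP-negative array, so that each group holds 3 arrays. GFP marks cells by activity of the Noto locus, and the GFP-negative cells are all remaining cells of the tissue, a mixture. The study asked what distinguishes the GFP-positive cells, the precursors of the notochord. In such bulk samples, fewer cells that replicate their DNA and less RNA per cell cannot be told apart.

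Replication starts at origins, where the origin recognition complex, Cdc6 and Cdt1 load the ring-shaped MCM helicase in G1. At the onset of S phase the kinases CDK2 with cyclin E and Cdc7 with Dbf4 fire the loaded helicases, which join Cdc45 and the GINS complex. DNA polymerase alpha with primase then starts each strand, and polymerases delta and epsilon extend it, held by the PCNA ring. Many of these genes are known targets of E2F transcription factors, so that their mRNA rises together as cells enter S phase.

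Markers of the labelled cells were measured first. In limma all 10 measured node and notochord markers were higher in GFP-positive cells (adjusted p under 0.05), while 6 of 11 endothelium and blood markers and 7 of 9 lateral mesoderm markers were lower. The summed intensity of the endothelium and blood markers was between 488 and 6115 on GFP-positive and between 13532 and 30169 on GFP-negative arrays, and that of the lateral mesoderm markers between 425 and 726 and between 2661 and 6018. The endothelium and blood sum was mostly globin. Hbb-y read 162, 2495 and 1761 on GFP-positive and 7040, 8857 and 12489 on GFP-negative arrays. The endothelial receptor gene Kdr read 52.7, 174 and 92.2 against 765, 1099 and 1059. No marker of these lists was at 0, and the part of these cell types in the results below was not tested. Both arrays of pool 1 stood apart, with Gapdh 3′ over 5′ signal ratios of 14.0 and 15.4 against 1.60 to 2.22 on the other arrays. Counts are therefore also given within pools and without pool 1, and beta-actin ratios stood apart likewise (14.9 and 22.7, against 1.90 to 2.75).

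To show the sequences that these genes share, the RefSeq promoter table (GRCm38.p6) was searched in the 250 bases before each gene start for the E2F motif, spelled TTTCGCGC, TTTGGCGC, TTTCCCGC or TTTGCCGC on either strand. Of the 54 members, 45 had an entry, and 11 of these (24.4%) held a match, against 403 of 10182 tested genes with an entry (3.96%) and 1.86% of all 32851 promoters of the table. The 11 were Cdc25a, Cdc6, Gins3, Mcm5, Mcm6, Mcm7, Orc1, Orc3, Pola1, Rfc3 and Uhrf1. The sequence CCAAT, on either strand, was found in 26 of the 45 members (57.8%), in 40.4% of the tested genes and in 33.8% of all promoters. Promoters are shown for some of the 11. Mcm6 (chr1:128359706-128359955, minus strand) and Mcm5 (chr8:75109259-75109508, plus strand) held 3 and 2 matches, and Mcm6 differed by -0.12 ± 0.19 between groups. Pola1 (chrX:93632156-93632405, minus strand) and Orc3 (chr4:34614943-34615192, minus strand) held 1 match each and were lower in GFP-positive cells with the pool as a block. The other members lower in that fit, E2f1, Prim1, Ccne1, Cdc7 and Fen1, were not among the 11. Rfc3 (chr5:151651209-151651458, minus strand) held 1 match and had a positive difference that did not pass. Capitals mark the E2F matches, each sequence runs 5′ to 3′ on the strand of its gene, and pairs of matches on opposite strands overlap in Mcm6 and Mcm5.
Mcm6: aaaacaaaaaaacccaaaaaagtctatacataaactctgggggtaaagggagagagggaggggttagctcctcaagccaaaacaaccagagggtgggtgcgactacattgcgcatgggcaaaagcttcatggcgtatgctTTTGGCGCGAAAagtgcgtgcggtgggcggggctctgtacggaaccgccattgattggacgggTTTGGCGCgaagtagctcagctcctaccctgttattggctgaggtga
Mcm5: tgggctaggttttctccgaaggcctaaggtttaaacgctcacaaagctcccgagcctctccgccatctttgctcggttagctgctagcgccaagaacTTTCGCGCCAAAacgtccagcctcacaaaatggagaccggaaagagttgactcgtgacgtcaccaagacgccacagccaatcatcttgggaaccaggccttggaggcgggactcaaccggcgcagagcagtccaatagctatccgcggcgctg
Pola1: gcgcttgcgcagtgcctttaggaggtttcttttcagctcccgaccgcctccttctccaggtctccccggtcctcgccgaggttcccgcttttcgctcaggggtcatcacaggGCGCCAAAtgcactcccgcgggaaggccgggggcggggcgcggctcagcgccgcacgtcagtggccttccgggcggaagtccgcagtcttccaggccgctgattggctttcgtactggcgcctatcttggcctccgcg
Orc3: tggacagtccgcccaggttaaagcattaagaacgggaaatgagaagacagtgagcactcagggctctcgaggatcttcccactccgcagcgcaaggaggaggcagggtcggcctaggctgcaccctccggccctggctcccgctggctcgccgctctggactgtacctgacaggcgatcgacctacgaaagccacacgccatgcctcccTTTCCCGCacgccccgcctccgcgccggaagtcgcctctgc
Rfc3: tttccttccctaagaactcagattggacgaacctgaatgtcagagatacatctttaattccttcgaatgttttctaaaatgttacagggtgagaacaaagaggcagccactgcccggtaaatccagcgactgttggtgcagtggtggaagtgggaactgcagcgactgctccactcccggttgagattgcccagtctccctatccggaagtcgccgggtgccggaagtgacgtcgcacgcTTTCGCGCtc
A match is a description of the sequence, not a site shown to be bound, and its relation to the differences between groups was not tested.

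Across the list, no member passed the test between the sorted groups without the pool as a term, and most differences were small. At an adjusted p under 0.05 in limma without the pool as a term, 0 of 53 members were higher in GFP-positive cells and 0 were lower, where 2.95% of all genes tested were higher and 1.71% lower. Before adjustment (p under 0.05), 1 member (Rfc3) was higher and 8 were lower, or 1.89% and 15.1%, against 12.7% and 10% of all genes. With the pool as a block, which compares the arrays of 1 pool with each other, 0 members were higher and 7 lower (13.2%), against 7.76% and 5.99% of all genes. These 7 were E2f1, Pola1, Prim1, Ccne1, Cdc7, Fen1 and Orc3. The median difference over the members was -0.09 on the log2(intensity + 32) scale, with 0.01 over all genes tested, and 50 of 53 members (94.3%) differed by less than 1 log2 unit, as did 93.9% of all genes. For 35 members (66.0%) the 95% interval of the difference also lay within 1 log2 unit of 0 on both sides, as for 67.5% of all genes. A unit on this scale is more than a doubling for dim genes, such as Tyms, so these intervals bound their fold less tightly.

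**Figure D1:**
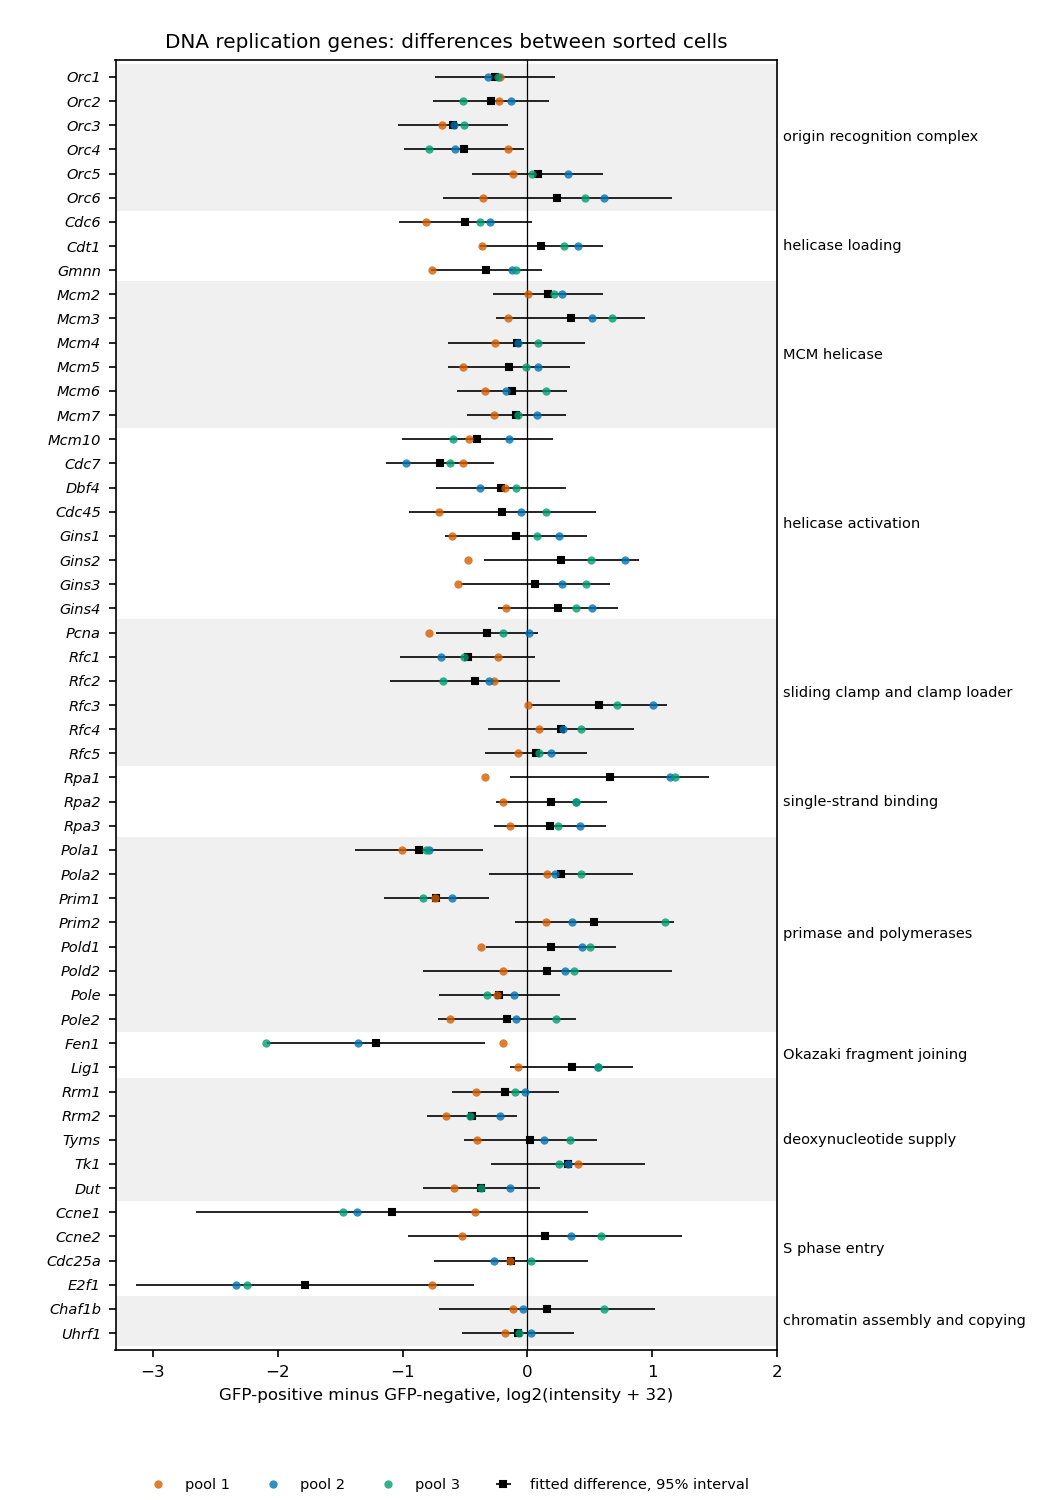
Difference between GFP-positive and GFP-negative arrays for the 53 measured replication genes, on the log2(intensity + 32) scale. Squares with bars are the fitted differences with 95% intervals, coloured points are the differences within pools 1, 2 and 3, and shaded bands group genes by role. Most intervals include 0, E2f1, Fen1 and Ccne1 lie farthest to the left, and pool 1 often lies left of the other pools.

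Within pools, the members were mostly lower in pool 1 and evenly split in pools 2 and 3. In pool 1, 47 of 53 members (88.7%) had the lower intensity on the GFP-positive array, against 46.6% of all genes. In pool 2 this held for 26 members (49.1%, with 48.3% of all genes) and in pool 3 for 24 (45.3%, with 50.1%). The median member difference was -0.27, 0.01 and 0.08 in pools 1, 2 and 3, and the median of all genes 0.03, 0.02 and -0.00. A group of 17 members (32.1%, with 12.5% of all genes) was lower in pool 1 and higher in both other pools; it held all 4 GINS subunits and all 3 subunits of the single-strand binding protein RPA. Pool 1 is the pool with the strong 3′ bias, and the part of that bias in this shift was not tested. In all 3 pools, 20 members (37.7%, with 24.9% of all genes) were lower in GFP-positive cells and 6 (11.3%, with 28.4%) higher.

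Without pool 1, calls went both ways. In limma on the 4 arrays of pools 2 and 3, 10 members were higher (18.9%, with 19.9% of all genes) and 11 lower (20.8%, with 17.5%), shares near the background on both sides. The 10 were Rpa1, Rfc3, Mcm3, Lig1, Gins2, Orc6, Pold1, Gins4, Rpa2 and Cdt1. The 11 were E2f1, Ccne1, Fen1, Prim1, Cdc7, Pola1, Rfc1, Orc4, Orc3, Rfc2 and Rrm2. They include all 7 that passed with the pool as a block, but that fit used the same 4 arrays, so this is not separate evidence.

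Of the origin recognition complex, the 6-subunit machine that marks origins, Orc3 was lower in GFP-positive cells with the pool as a block. None of the other subunits passed at the probe set that stands for the gene. Orc3 had intensities of 181, 155 and 172 on the GFP-positive arrays of pools 1, 2 and 3 and of 311, 250 and 257 on the GFP-negative arrays. Every GFP-negative array lay above every GFP-positive array. Its log2 difference was -0.59 ± 0.19 (SE, n = 3 per group; limma adjusted p = 0.12). The blocked fit over genes gave an adjusted p of 0.0477, and that over all kept probe sets gave 0.0564. Within pools the difference was -0.69, -0.59 and -0.50. Of its 2 other kept probe sets, both dim, 1 had -0.63 and 1 had -0.15. Orc4 read 223, 205 and 158 against 252, 322 and 296, again without overlap. It differed by -0.51 ± 0.21 (limma adjusted p = 0.2, and 0.104 with the block), and by -0.16, -0.58 and -0.79 within pools. All 3 other kept probe sets of Orc4 were negative, and 1 of them, at -0.84, passed with the block (adjusted p = 0.0318). Orc1 and Orc2 had -0.26 and -0.29 and overlapped between groups. Another kept probe set of Orc2 had -0.88 and passed with the block (limma adjusted p = 0.0414), while a further one had 0.49. Orc5 and Orc6, at 0.08 and 0.24, were lower in pool 1 and higher in pools 2 and 3.

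The loading factors differed from each other. Cdc6, the ATPase that helps bring the helicase to the origin, had intensities of 1023, 1576 and 1712 on GFP-positive and of 1820, 1946 and 2236 on GFP-negative arrays. The groups did not overlap, and the difference was -0.50 ± 0.23 (limma adjusted p = 0.248, and 0.0857 with the block), with -0.81, -0.30 and -0.38 within pools. Gmnn, or geminin, which binds Cdt1 and blocks loading outside G1, read 2321, 2576 and 2560 against 3973, 2816 and 2727. Its groups did not overlap either, but the difference of -0.33 ± 0.19 was uneven, with -0.77 in pool 1 and -0.13 and -0.09 in pools 2 and 3. Cdt1, the loading factor that geminin holds, differed by 0.11 ± 0.22, with -0.37 in pool 1 and 0.40 and 0.29 in the other pools.

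The MCM helicase, which unwinds the DNA, showed no difference as large as 2-fold at the probe sets that stand for its subunits. For its 6 subunits, Mcm2 to Mcm7, the log2 differences lay between -0.15 (Mcm5) and 0.35 (Mcm3), and all 6 of the 95% intervals lay within 1 log2 unit of 0. Mcm7 read 4635, 6404 and 6198 on GFP-positive and 5597, 6085 and 6520 on GFP-negative arrays, with an interval of the difference from -0.49 to 0.31. Mcm5 read 4756, 4339 and 4325 against 6811, 4095 and 4350, where GFP-negative array 1 was the high one. Mcm3, with the largest difference of the 6, read 1130, 2106 and 2050 against 1264, 1458 and 1266. It was lower in pool 1 (-0.16) and higher in pools 2 and 3 (0.52 and 0.68). The difference of 0.35 ± 0.26 did not pass (limma adjusted p = 0.457), and it passed without pool 1 at 0.60 (adjusted p = 0.0056). Without pool 2 or 3 Mcm3 differed by 0.26 or 0.18 (limma adjusted p = 0.902 and 0.943). Of its 4 other kept probe sets 3 were positive and 1, which was dim, was at -0.22.

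Probe sets of the same MCM gene read pool 1 very differently. A second probe set of Mcm7 had intensities of 707 and 932 in pool 1, GFP-positive first, and between 2794 and 3382 on the remaining arrays. A second probe set of Mcm5 had 317 and 487 in pool 1 and between 1095 and 1363 elsewhere. Both had small differences between sorted groups, at -0.025 ± 0.63 and -0.10 ± 0.54. These errors are from the fit without the block, so they include the distance of pool 1 from the other pools. Neither probe set passed with the block (limma adjusted p = 0.939 and 0.764). A second probe set of Uhrf1, the factor that carries DNA methylation to new strands, had 55.3 and 72.1 in pool 1 and between 216 and 284 elsewhere. The first probe set of Uhrf1 had 1615 and 1831 in pool 1 and between 2146 and 2274 elsewhere, and its difference between groups was -0.07 ± 0.20. At these second probe sets, pool 1 lay farther from the other pools than the sorted groups lay from each other.

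**Figure D2:**
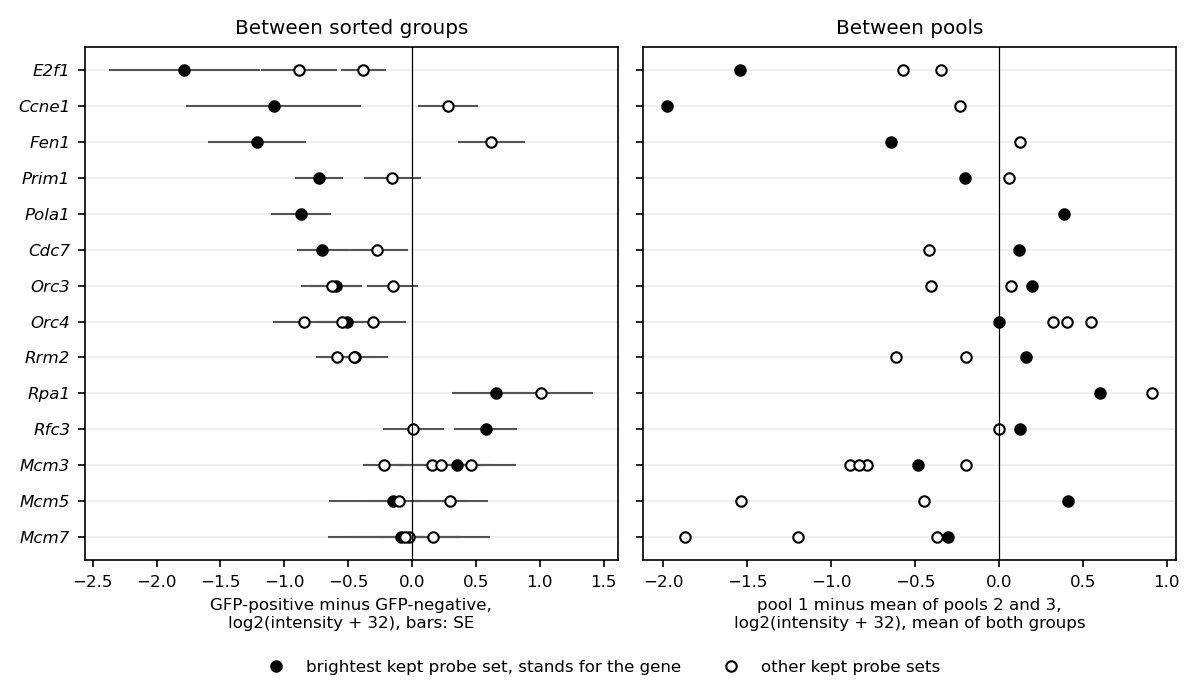
Kept probe sets of 14 replication genes. Filled circles are the probe set that stands for the gene and open circles the others; the left panel gives the fitted difference between sorted groups with its SE and the right panel the difference of pool 1 from the mean of pools 2 and 3, both on the log2(intensity + 32) scale. Probe sets of Fen1 and Ccne1 lie on both sides of 0 on the left, and those of Mcm7 and Mcm5 are spread widely on the right.

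Among the factors that activate the helicase, Cdc7 was lower in GFP-positive cells once the pool was a block. Cdc7, the kinase that phosphorylates the loaded MCM ring, had intensities of 971, 789 and 824 on GFP-positive and of 1406, 1581 and 1282 on GFP-negative arrays. No array of one group reached the other. The difference of -0.70 ± 0.19 missed the threshold (limma adjusted p = 0.0757) and passed with the block (adjusted p = 0.0326), with -0.52, -0.97 and -0.62 within pools. Its 1 other kept probe set was near background, at 7.05 to 43.5, and had -0.28. Dbf4, the activating subunit of Cdc7, differed by -0.21 ± 0.23 with overlapping groups. The helicase partners Cdc45, Gins1, Gins2, Gins3 and Gins4 had differences between -0.20 and 0.27, and none passed with the block. Gins2 was lower by -0.48 in pool 1 and higher by 0.79 and 0.51 in pools 2 and 3. A second, dim probe set of Cdc45 read 24.3, 4.90 and 22.8 against 68.6, 57.2 and 66.8, and at -0.99 it passed with the block (adjusted p = 0.0137), unlike the brighter one. Mcm10, which brings polymerase alpha to the fork, differed by -0.40 ± 0.26.

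The clamp and its loader had differences of both signs. Pcna, the sliding ring that tethers polymerases, read 4711, 6042 and 5460 on GFP-positive and 8177, 5981 and 6269 on GFP-negative arrays. Its difference of -0.32 ± 0.18 was largest in pool 1 (-0.79, against 0.01 and -0.20), and the 95% interval ran from -0.73 to 0.09. Of the subunits of the clamp loader RFC, Rfc1 and Rfc2 had -0.48 ± 0.24 and -0.42 ± 0.30, with 0.36 and 0.06 at the other kept probe sets of Rfc2, and Rfc3, Rfc4 and Rfc5 had 0.58 ± 0.24, 0.27 ± 0.26 and 0.07 ± 0.18. Rfc3 read 330, 462 and 372 against 328, 214 and 214, and is 1 of 2 members, with Prim2, whose GFP-positive arrays all lay above the GFP-negative ones. This holds for 3.77% of members and 15.6% of all genes. Within pools Rfc3 differed by 0.01, 1.01 and 0.71. It did not pass over all arrays (limma adjusted p = 0.2, and 0.115 with the block). Rfc3 passed without pool 1, but not without pool 2 or 3 (limma adjusted p = 0.878 and 0.76). Its other kept probe set had 0.01, so the value for Rfc3 rests on 1 probe set. In the opposite direction, 10 members (18.9%, with 12.2% of all genes) had every GFP-negative array above every GFP-positive one.

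The single-strand binding protein RPA, which coats unwound DNA, was split between pools. Rpa1, its large subunit, read 3544, 3821 and 4054 on GFP-positive and 4503, 1716 and 1773 on GFP-negative arrays. GFP-negative array 1 was above all GFP-positive arrays, and GFP-negative arrays 2 and 3 were far below them. Rpa1 therefore differed by -0.34 in pool 1 and by 1.14 and 1.18 in pools 2 and 3, and by 0.66 ± 0.35 over all arrays (limma adjusted p = 0.296). Without pool 1 the difference was 1.16 ± 0.11 (adjusted p = 0.000175), and without GFP-negative array 1 it was 1.11 (adjusted p = 0.00203). Without pool 2 or 3 it was 0.42 or 0.40 and did not pass (limma adjusted p = 0.882 and 0.863). The second probe set of Rpa1 read 1044, 895 and 860 against 954, 308 and 291. GFP-negative arrays 2 and 3 were low in it too, but in pool 1 the GFP-positive array was the higher one, unlike in the first probe set. Rpa2 and Rpa3 had 0.19 and 0.18, again lower in pool 1 and higher in the others.

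Polymerase alpha and primase, which start every new strand, each had a catalytic subunit that was lower in all 3 pools. Pola1, the catalytic subunit of polymerase alpha, read 218, 184 and 163 on GFP-positive and 470, 341 and 310 on GFP-negative arrays. The groups were well apart, and the difference was -1.01, -0.79 and -0.81 within pools. It was -0.87 ± 0.23 over all arrays (limma adjusted p = 0.0683, and 0.0161 with the block). Pola1 had 1 kept probe set. Prim1, the catalytic subunit of primase, read 834, 1039 and 906 against 1417, 1599 and 1643. Its difference of -0.73 ± 0.18 (limma adjusted p = 0.0641, and 0.0236 with the block) was -0.74, -0.61 and -0.84 within pools. A second probe set of Prim1, with 715, 923 and 713 against 1004, 922 and 710, had only -0.16 ± 0.22. The partner subunits had positive differences. Pola2 had 0.27 ± 0.25, and Prim2 read 349, 410 and 361 against 311, 313 and 151, a difference of 0.54 ± 0.28 (limma adjusted p = 0.289). Prim2 differed within pools by 0.15, 0.36 and 1.10, and neither partner passed with the block. The polymerase delta genes Pold1 and Pold2 had 0.19 and 0.16, and the polymerase epsilon genes Pole and Pole2 had -0.22 and -0.16.

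**Figure D3:**
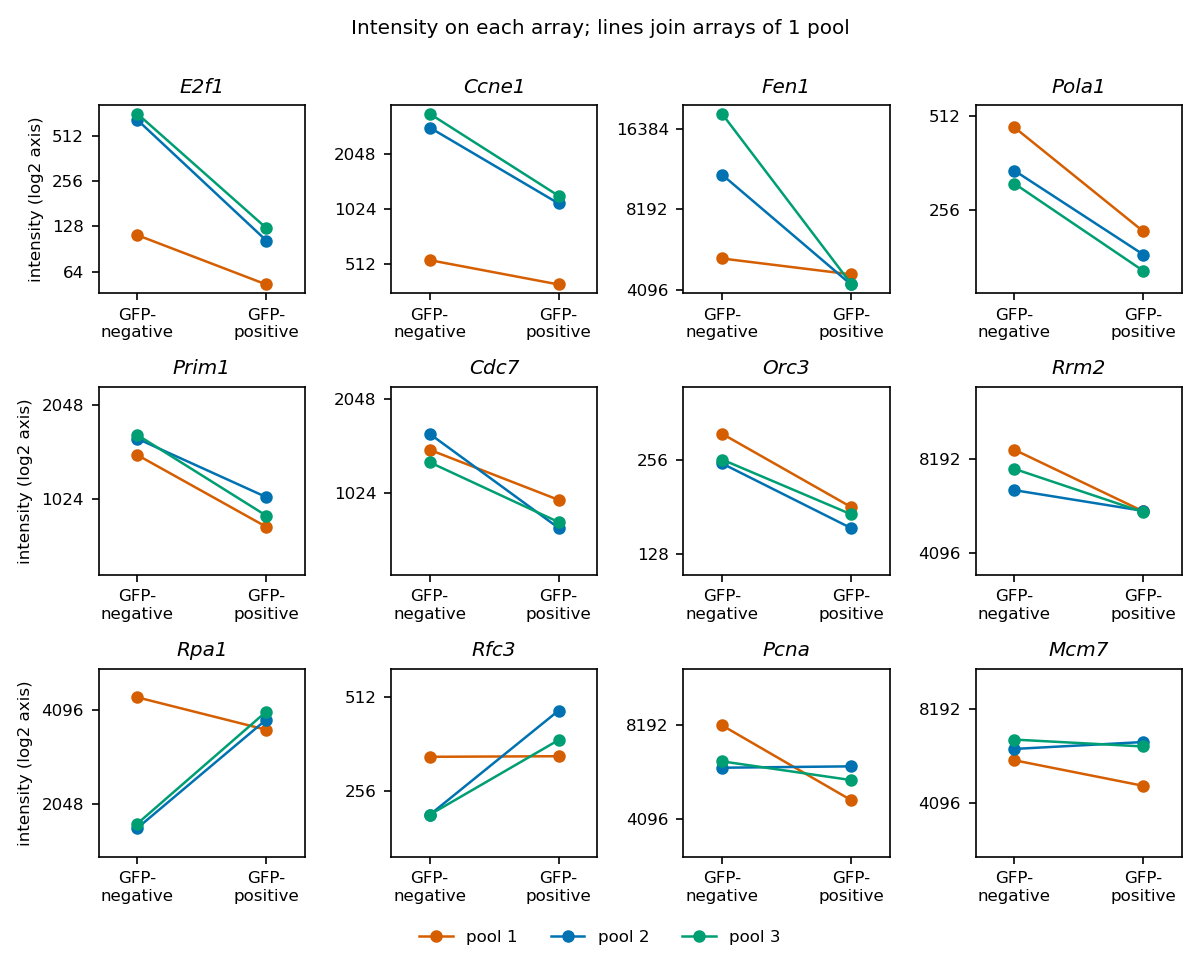
Intensity of 12 replication genes on each array, on a log2 axis, with lines joining the GFP-negative and GFP-positive arrays of 1 pool. E2f1, Ccne1 and Fen1 are high on GFP-negative arrays 2 and 3 and lower on GFP-negative array 1, Pola1, Prim1, Cdc7 and Orc3 are lower on the GFP-positive array of each pool, and Rpa1 is higher there in pools 2 and 3 (1.14 and 1.18) and lower in pool 1 (-0.34).

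Of the enzymes that finish Okazaki fragments, Fen1 gave opposite readings from its 2 probe sets. The brighter probe set of Fen1, the flap nuclease, read 4694, 4304 and 4336 on GFP-positive and 5379, 11046 and 18620 on GFP-negative arrays. The last value was the brightest of all probe sets on that array. The difference was -1.21 ± 0.38 (limma adjusted p = 0.111, and 0.0415 with the block), and -0.20, -1.35 and -2.09 within pools. The other probe set read 644, 910 and 859 against 706, 443 and 413, a difference of 0.62 ± 0.26 in the opposite direction. The brighter one is of the Affymetrix type whose probes can bind other transcripts, so the direction for Fen1 is uncertain. The probe sets that stand for Ccne1, Mcm4, Mcm5, Mcm6, Pold1 and Rrm2 are of the same type. Lig1, the ligase that seals the fragments, had 0.35 ± 0.22, with -0.07 in pool 1 and 0.57 in both other pools.

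Of the 5 genes of deoxynucleotide supply, none passed with or without the block. Rrm2, the S-phase subunit of ribonucleotide reductase, read 5556, 5575 and 5527 on GFP-positive arrays, nearly the same level 3 times, and 8756, 6498 and 7604 on GFP-negative arrays. The groups did not overlap, and the difference was -0.44 ± 0.16 (limma adjusted p = 0.145, and 0.0782 with the block), with -0.65, -0.22 and -0.46 within pools. Both other kept probe sets had negative differences, -0.45 and -0.59, and the latter passed with the block (adjusted p = 0.0417). Dut, which removes dUTP, had no overlap between groups either, with 2793, 4201 and 4097 against 4218, 4642 and 5314. It differed by -0.37 ± 0.20. Rrm1, the large subunit of the reductase, had -0.18 ± 0.19, and the thymidine kinase Tk1 had 0.33 ± 0.27, higher in all 3 pools. Tyms, or thymidylate synthase, lay between 24.9 and 67.9 on all arrays, near the array medians of 19.8 to 28.0, so that its 0.02 ± 0.23 says little.

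Of the genes of S phase entry, E2f1 had the largest difference of the list. E2f1, a transcription factor that drives this gene set, read 52.8, 103 and 125 on GFP-positive and 112, 650 and 714 on GFP-negative arrays. GFP-negative arrays 2 and 3 were high, and GFP-negative array 1 lay at the level of the GFP-positive arrays. The difference was -1.78 ± 0.59 (limma adjusted p = 0.126), with -0.76, -2.33 and -2.25 within pools, and it passed with the block (adjusted p = 0.0125). Its 2 other kept probe sets had -0.88 and -0.38, and the first passed with the block (adjusted p = 0.0393). Without GFP-negative array 1 the difference was -2.55 (limma adjusted p = 0.00128), and without pool 1 it was -2.29 (adjusted p = 4.22e-05). Without pool 2 or 3 it was -1.51 or -1.55 and did not pass without the block (limma adjusted p = 0.665 and 0.485). The summed blood and endothelium markers followed a like order on the GFP-negative arrays, at 13532, 20409 and 30169. So did the summed lateral mesoderm markers, at 2661, 5883 and 6018. The sums rest mostly on their brightest genes, and single markers varied. Hbb-y read 7040, 8857 and 12489 and Tbx20 read 680, 2682 and 2104 on these arrays. Etv2 read 386, 352 and 386, Prrx1 367, 346 and 284, and Isl1 300, 151 and 196, which is not that order. GFP-negative array 1 also had the strong 3′ bias, with a Gapdh ratio of 15.4. The part of each in the E2f1 difference was not tested.

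Ccne1, or cyclin E1, which activates CDK2 at S phase entry, depended on the probe set. The brighter one read 395, 1101 and 1212 against 537, 2880 and 3430, low on both arrays of pool 1. The difference was -1.08 ± 0.69 (limma adjusted p = 0.379), and it passed with the block (adjusted p = 0.0237) at -0.42, -1.36 and -1.48 within pools. The other probe set read 326, 522 and 481 against 371, 371 and 315, with 0.28 ± 0.24, so the 2 disagreed in sign. Ccne2 and Cdc25a, the phosphatase that frees CDK2, had 0.14 ± 0.48 and -0.13 ± 0.27. Chaf1b, a subunit of the histone chaperone that packs new DNA, read 260, 593 and 634 against 284, 607 and 404, a difference of 0.15 ± 0.38 (limma adjusted p = 0.835). Within pools it was -0.11, -0.03 and 0.61, and its sign changed when single arrays were left out.

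In the 38 members with more than 1 kept probe set, 13 had at least 1 with the sign opposite to the one that stands for the gene. These were Ccne1, Cdc25a, Chaf1b, Fen1, Gins3, Mcm3, Mcm5, Mcm7, Mcm10, Orc2, Pold1, Rfc2 and Rrm1. Of all 109 kept probe sets of the members, the blocked fit in limma gave 12 that were lower (11%) and 0 that were higher, against 4.93% lower and 4.93% higher of all 27824 kept probe sets. Without the block 0 passed, against 0.55% lower and 1.26% higher of all kept probe sets. The 12 include second probe sets of E2f1, Orc2, Orc4, Rfc1, Cdc45 and Rrm2. Those of Orc2 and Rfc1 had -0.88 and -0.80, while another probe set of Orc2 had 0.49, with 168, 106 and 109 against 152, 55 and 55. GFP-negative array 1 was nearer to the mean of the GFP-positive arrays than to that of GFP-negative arrays 2 and 3 in 32 members (60.4%), against 57.6% of all genes, a count chosen after the values were seen.

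Other genes of the fork, from a list of 39 with 37 measured, included 2 that were lower and 0 that were higher in limma. The blocked fit gave 8 lower and 1 higher, and the median was -0.22. Of all genes tested, 1.71% were lower and 2.95% higher without the block, and 5.99% and 7.76% with it. Dtl, the adaptor of the ubiquitin ligase that destroys Cdt1 during S phase, read 917, 695 and 830 on GFP-positive and 1348, 1885 and 2064 on GFP-negative arrays. Dtl fell by 1.07 ± 0.22 on the log2 scale (limma adjusted p = 0.0383). Atad5, which unloads PCNA, read 564, 247 and 216 against 865, 1084 and 850, and fell by 1.47 ± 0.34 (adjusted p = 0.0479). Slbp, which binds histone mRNA, had -0.61 ± 0.17 (adjusted p = 0.0874) and passed with the block (adjusted p = 0.0362). Rnaseh2c, a subunit of the nuclease that removes RNA from DNA, was the 1 higher with the block, at 0.65.

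Mitosis genes were set beside these lists. Of 31 measured mitosis genes, limma gave 1 lower and 0 higher, the blocked fit gave 7 lower and 0 higher, and the median was -0.30. Of all genes tested, 1.71% were lower and 2.95% higher without the block, and 5.99% and 7.76% with it. The 1 mitosis gene lower without the block was Hmmr, a spindle protein, which fell by 1.03 ± 0.20 (limma adjusted p = 0.0285). Cenpf, a kinetochore protein, and Kif11, a spindle motor, had -1.65 ± 0.39 and -0.98 ± 0.24 (adjusted p = 0.0516 and 0.0567). The list of E2F, RB and cyclin A genes, with 15 measured, had 0 calls in limma with or without the block. Before adjustment (p under 0.05), without the block, 1 was higher (E2f8, at 0.75) and 0 were lower, against 12.7% and 10% of all genes. The median of this list was -0.07. E2f2, a close relative of E2f1, and Tfdp1, its dimer partner, had -0.47 ± 0.28 and -0.30 ± 0.18. The lists share their arrays, and no difference between lists was tested.

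**Figure D4:**
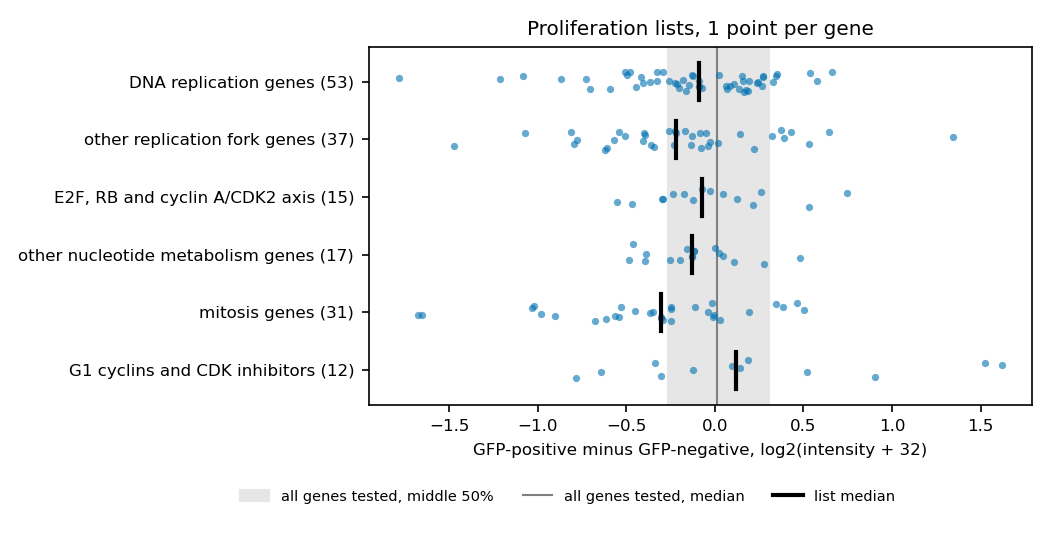
Fitted difference between GFP-positive and GFP-negative arrays for each gene of the replication list and 5 other proliferation lists, on the log2(intensity + 32) scale, with the number measured in brackets. Black ticks are list medians, and the grey band holds the middle 50% of all genes tested around their median; the medians of the 53 replication genes (-0.09) and of the 31 mitosis genes (-0.30) lie left of that of all genes (0.01).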

How the data were processed

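The authors deposited linear-scale intensities of 1-colour arrays, made with GCOS 1.4 per the submitters' processing notes, after small-scale RNA extraction with a carrier, both amplification cycles of an Affymetrix kit and a biotin label, per the labels' protocols. Each array had been scaled to 1 common mean, since after trimming 2% from either end the mean was 150 on each of the 6 arrays. Changes are therefore relative to the array, and 3 arrays a group limit the precision.

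Intensities were taken to log2(value + 32), which understates changes of dim genes. Of 45101 probe sets, 27824 were kept because at least 3 arrays held them at or above the array's 40th percentile. Each of 12628 genes with a probe set of 1 symbol was represented by its kept probe set of highest mean, and limma 3.58.1 in R 4.3.3 fitted these with lmFit and eBayes with a trend and with the sorted group alone as a term. P-values were adjusted by Benjamini-Hochberg over all genes, with a threshold of 0.05; single probe sets were adjusted over all kept ones. Errors are standard errors from limma. The fit was also run on simulated data with independent noise. The draws for the fit without the block held no pool effect, unlike the real arrays, so they do not cover the shift of pool 1. Gene identifiers of all 116 member probe sets matched the RefSeq table (GRCm38.p6), and 0 symbols were updated. Promoters were searched in Python 3.11.15.

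Per the labels, arrays of the same number share a pool of embryos, and this pairs them. Their deviations from group means correlated at 0.49, 0.26 and 0.41. Across pools 2 and 3 they correlated at 0.24 and 0.37, so the values set pool 1 apart but do not by themselves pair arrays 2 and 3. The fit with the pool as a block is given beside the results it changes. The members and lists were chosen with earlier results of these data known. By the rule for named genes, values on every array are given for members that passed either fit, for the 3 largest differences in each direction and for the largest difference of each role group. For the other lists, apart from the marker lists, the difference is given for the 3 genes of smallest adjusted p. The adjusted p and array values are given for only some of these. Further genes were picked after their values were seen. When arrays were left out, the genes tested were kept.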

Additional observations from a re-analysis of the deposited data

How the results depend on the processing

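The number of members called depended on pool 1 more than on any processing step tried. Calls over all genes tested rose likewise, from 372 higher and 216 lower to 2511 and 2213 without pool 1. With the pool as a replicate block, 7 members were lower in place of 0 (13.2%, with 5.99% of all genes). None were higher with it, against 7.76% of all genes. Quantile normalization gave 1 lower member (Prim1, adjusted p = 0.049), and averaging the probe sets of a gene gave 1 (Pola1, adjusted p = 0.0483). Each is 1.89% of members, with 1.73% and 1.84% of all genes lower. Leaving out 1 array or 1 pool gave between 0 and 10 higher and between 0 and 11 lower members. The highest counts came without pool 1, at 18.9% and 20.8%, with 19.9% and 17.5% of all genes. Without GFP-negative array 1 there were 2 higher (Rfc3 and Rpa1) and 6 lower, or 3.77% and 11.3%, with 11% and 10.9% of all genes. In alternatives chosen after seeing the data, the block without pool 1 gave 13 higher and 13 lower (24.5% each, with 22.8% and 20.9% of all genes), and without pool 2 or 3 it gave 2 lower (E2f1 with Fen1, and E2f1 with Pola1; 3.77%, with 2.81% and 3.10% of all genes). Other offsets, median centring, other filters and a variance without a trend left both counts at 0. The median of the members was 0.04 without pool 1 and between -0.18 and -0.0012 under the other alternatives. Members with all GFP-positive arrays above numbered 1 in place of 2 under quantile normalization and under median centring. Under these 2 settings, members with all GFP-negative arrays above numbered 9 and 8 in place of 10. Members lower in all 3 pools numbered 22 and 17 in place of 20. The shares of all genes for these counts were not computed under the 2 settings. Among the genes of the rule for named genes, signs turned at other probe sets of Ccne1 (0.28), Fen1 (0.62), Mcm3 (-0.22) and Chaf1b (-0.11), and for Chaf1b without GFP-positive array 2 or 3 (-0.013 and -0.059), without GFP-negative array 1 (-0.093) and without pool 3 (-0.073 with and without the block); its values with 1 array or pool left out ran from -0.093 to 0.54.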

Other observations

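The genes that gate entry into the cycle gave calls of both signs. Of 12 measured G1 cyclins and CDK inhibitors, limma gave 1 higher and 0 lower, and the blocked fit gave 3 higher and 1 lower. Of all genes tested, 2.95% were higher and 1.71% lower without the block, and 7.76% and 5.99% with it. Cdkn1a, or p21, which inhibits CDK2 and binds PCNA, read 354, 349 and 460 on GFP-positive and 163, 90.3 and 95.7 on GFP-negative arrays, and rose by 1.53 ± 0.25 on the log2 scale (limma adjusted p = 0.016). Cdkn1c, another inhibitor of CDKs, had 0.90 ± 0.25 and Ccnd1, or cyclin D1, had 1.62 ± 0.44. Both passed with the block only (limma adjusted p = 0.0291 and 0.0361). Ccnd1 was uneven, with 0.21 in pool 1 and 2.09 and 2.56 in pools 2 and 3. Ccnd2, or cyclin D2, had -0.78 ± 0.20 and also passed with the block only (adjusted p = 0.0302).

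Of 17 other genes of nucleotide metabolism, 0 passed in limma with or without the block. Without it, 1 was higher and 2 were lower before adjustment (p under 0.05), against 12.7% and 10% of all genes. The 1 was the mitochondrial kinase Tk2, at 0.48, and the 2 were Paics and Ctps, enzymes of purine and CTP synthesis, each at -0.39.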
